A study of Mus musculus with 2 samples.

Results

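Transcripts of 5 hormone receptors of social and reproductive behaviour were followed in nuclei of the mouse amygdala. They were the prolactin receptor (Prlr), the oxytocin receptor (Oxtr), the vasopressin receptor 1a (Avpr1a), estrogen receptor alpha (Esr1) and the progesterone receptor (Pgr). They are 5 of the 32285 genes in the deposited count tables and were found by matching Ensembl identifiers to symbols. Each had at least 1 UMI (unique molecular identifier, 1 counted RNA molecule) in both libraries. The libraries came from mice of 6 to 8 weeks with the strain label C57BL6/J, 1 labelled Sema6d-/- (KO) and 1 labelled WT. The semaphorin Sema6d spans the membrane and guides growing axons. The sources used here do not say which part of Sema6d was deleted, what sex the mice were or how many mice a library pooled. Since a genotype had 1 library, differences could not be tested, and the ranges in brackets are exact 95% intervals for counting error alone. They say nothing of the spread between animals, dissections or preparations.

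The 5 receptors belong to different families. Prlr is a cytokine receptor at the cell surface that signals through the kinase Jak2 and the transcription factors Stat5a and Stat5b, and prolactin reaches the brain from the pituitary. Oxtr and Avpr1a are related surface receptors coupled to Gq proteins and phospholipase C, and they bind peptides released by hypothalamic and, for vasopressin, also amygdalar neurons. Esr1 and Pgr are nuclear receptors that bind DNA together with their steroid, and Pgr is a textbook target gene of estrogen. The medial amygdala is known for neurons that carry sex steroid receptors and take part in mating, parental and aggressive behaviour.

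After filtering, the KO library held 7911 nuclei with 56736373 UMIs and a median of 6418 UMIs per nucleus. The WT library held 10369 nuclei with 79305700 UMIs and a median of 7196 UMIs. Named from their markers, 3643 KO and 6328 WT nuclei were inhibitory neurons, 1262 KO and 1719 WT nuclei excitatory neurons, and 1155 KO and 577 WT nuclei oligodendrocytes. Sema6d itself did not check the labels, since the kit counts tags near the 5′ end and the deleted part is not known. It stood at 686 counts per 1000000 UMIs (CPM) in KO nuclei and 632 CPM in WT nuclei, so KO and WT are used below as the labels of the libraries. The Y-linked gene Uty had 7144 UMIs in KO and 9252 in WT, while the female-specific RNA Xist had 3 in KO and 6 in WT. The libraries shared 128 of their nucleus barcodes. Nuclei with markers of the basolateral amygdala (Rspo2 with Slc17a7) numbered 303 in KO and 419 in WT, and nuclei with markers of striatal projection neurons (Drd2 with Adora2a) 700 in KO and 1308 in WT. UMIs of the GABA marker genes Gad1, Gad2 and Slc32a1 were found in all classes. They summed to 230 CPM in KO and 186 CPM in WT oligodendrocytes, and to 645 CPM in KO and 577 CPM in WT inhibitory neurons. How much of the glial UMIs was free RNA was not tested.

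Prlr, Esr1 and Pgr stood higher in neurons than in astrocytes and oligodendrocytes. Inhibitory neurons held 68.8% of the Prlr UMIs in KO and 72.0% in WT, against 55.1% of all UMIs in KO and 65.3% in WT. Prlr stood at 17.3 CPM (15.9 to 18.9) in KO and 15.6 CPM (14.6 to 16.7) in WT inhibitory neurons. In excitatory neurons it stood at 9.78 CPM (8.27 to 11.5) in KO and 10.2 CPM (8.84 to 11.8) in WT, below the inhibitory neurons of both libraries with no overlap. The order of the classes was the other way round for Esr1, with 15.1 CPM in KO and 15.1 CPM in WT excitatory neurons and 10.1 CPM in KO and 8.94 CPM in WT inhibitory neurons. Pgr differed little between them, with 44.0 CPM in KO and 42.8 CPM in WT inhibitory neurons and 41.0 CPM in KO and 37.6 CPM in WT excitatory neurons. Summed over a class, fewer nuclei that carry a receptor and less RNA per nucleus cannot be told apart.

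Glia held little of them. Astrocytes had 1 Prlr UMI in KO and 7 in WT, oligodendrocytes 12 in KO and 7 in WT, oligodendrocyte precursors 0 in KO and 7 in WT, and microglia 0 in both libraries. Pgr stood at 13.0 CPM in KO and 10.9 CPM in WT astrocytes and at 6.35 CPM in KO and 6.33 CPM in WT oligodendrocytes. The Gad genes stood at 177 CPM in KO and 174 CPM in WT astrocytes, and they also stood far above the receptors in inhibitory neurons. The part of free RNA in the glial values was not tested. Esr1 in microglia was the exception, at 49.4 CPM (28.8 to 79.0) from 17 UMIs in 214 KO nuclei and 21.9 CPM (5.96 to 56.0) from 4 UMIs in 105 WT nuclei, and the intervals overlap. Cluster 15 was left unnamed: microglial genes led it, while its Gad genes stood at 361 CPM with both libraries pooled and its median depth was 10990 UMIs, against 1555 UMIs in microglia. It held Prlr at 12.4 CPM in 217 KO and 14.2 CPM in 172 WT nuclei, where the microglia held none.

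**Figure D1:**
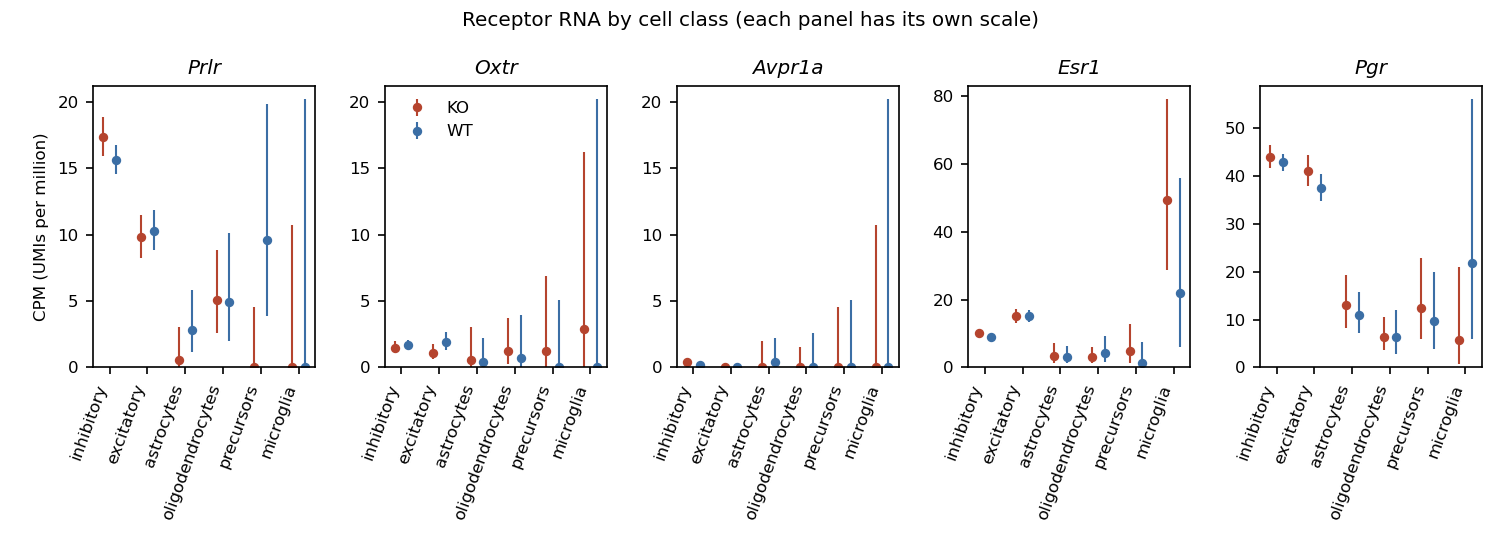
Receptor RNA in CPM (y axis, each panel with its own scale) in 6 cell classes (x axis), KO in red left of WT in blue. Points are the level in the library and bars the exact 95% Poisson interval. Prlr is highest in inhibitory neurons in both libraries, and Esr1 has its highest point in KO microglia, where 17 UMIs were counted.

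Of the receptors with most UMIs (Prlr, Esr1 and Pgr), Prlr was the most concentrated in few neurons. The gene lies on chromosome 15 (GRCm38, chr15:10177238-10349180, plus strand, 171.9 kb). Its promoter window is shown because the kit counts tags near the transcript start, although the counts do not say which of the 3 starts listed by RefSeq (GRCm38.p6) was used. The window runs from 250 bases before to 50 after the most upstream start, chr15:10176988-10177287, plus strand.
Prlr promoter: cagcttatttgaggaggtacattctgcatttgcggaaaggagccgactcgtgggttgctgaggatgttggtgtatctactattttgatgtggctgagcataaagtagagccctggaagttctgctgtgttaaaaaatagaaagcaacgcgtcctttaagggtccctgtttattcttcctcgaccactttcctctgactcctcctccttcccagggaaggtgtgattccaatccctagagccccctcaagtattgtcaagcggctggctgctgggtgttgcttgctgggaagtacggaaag
This window held none of 4 motifs searched on both strands: the estrogen response core site GGTCA or TGACC, the full site GGTCANNNTGACC, the core site of progesterone and glucocorticoid receptors AGAACA or TGTTCT, and the STAT5 site TTCNNNGAA. Over 32851 such windows these stood in 40.5%, 0.07%, 18.97% and 8.30%. Of the windows at the 3 Prlr starts, 1 held AGAACA or TGTTCT and 1 held TTCNNNGAA.

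The clusters were formed with the 5 receptor genes left out of the variable genes, and still 2 clusters held most of Prlr. Cluster 0, led by Pappa2, Slc17a6, Rmst and Baiap3, and cluster 7, led by Ankfn1, Glra3 and Cpne7, had Prlr among their 10 leading genes. Together they held 69.7% of the Prlr UMIs in 14.8% of the KO nuclei and 70.8% in 14.4% of the WT nuclei. Cluster 0 mixed GABA and glutamate markers and was split nucleus by nucleus by the transmitter gene with more UMIs. Of its 1798 nuclei, 672 lay within 1 UMI of that cut. The GABA nuclei of cluster 0 stood at 76.9 CPM (67.7 to 87.0) in KO and 78.2 CPM (69.4 to 87.8) in WT. Cluster 7, all inhibitory, stood at 57.6 CPM (48.7 to 67.6) in KO and 67.4 CPM (59.7 to 75.8) in WT. The glutamate nuclei of cluster 0, whose vesicular transporter is Slc17a6, stood at 34.7 CPM (28.5 to 41.9) in KO and 57.5 CPM (49.1 to 66.9) in WT.

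After these the level dropped. Cluster 3, led by Foxp2 and Tshz1, genes of intercalated neurons, stood at 15.4 CPM (11.00 to 20.97) in KO and 26.1 CPM (21.8 to 31.1) in WT. Cluster 9, led by Nxph1, stood at 13.6 CPM in KO and 10.5 CPM in WT, and cluster 11, led by Lhx8, at 13.4 CPM in KO and 8.53 CPM in WT. The interval of the GABA nuclei of cluster 0 cleared that of cluster 7 only narrowly in KO, at 67.69 against 67.63 CPM. In WT the intervals of these neighbours overlapped, and this is not read as a contrast between the libraries. The median over neuron clusters was 3.53 CPM in KO and 2.94 CPM in WT, so the top cluster stood 21.8 times above it in KO and 26.6 times in WT. Among the lowest were striatal-marker clusters: cluster 1, led by Ebf1 and Drd1, had 2 UMIs in KO and 14 in WT, and cluster 6, led by Drd2 and Adora2a, 0 in KO and 6 in WT. The cholinergic-marker cluster 27 (Chat and Slc5a7) had none in either library.

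Gates on marker genes also reached high levels. Nuclei with Zfp804b and Baiap3 stood at 60.02 CPM in KO and 58.1 CPM in WT, a log2 ratio of KO over WT of 0.05 (-0.22 to 0.31), and none of the 3 receptors with enough UMIs there passed a ratio of 0.5, against 16.6% of all genes. Those with Tac2, the neurokinin B precursor, stood at 50.4 CPM in KO and 49.5 CPM in WT. Those with Cyp19a1, the aromatase that makes estradiol from testosterone, stood at 50.3 CPM (28.7 to 81.7) in 27 KO nuclei and 31.7 CPM (16.4 to 55.5) in 41 WT nuclei. Gates overlap each other and the clusters, so these are not separate sets. The molecules were spread over many nuclei: 384 KO and 588 WT nuclei had at least 1 Prlr UMI, 29 KO and 35 WT nuclei had at least 5, and the highest held 12 in KO and 18 in WT.

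**Figure D2:**
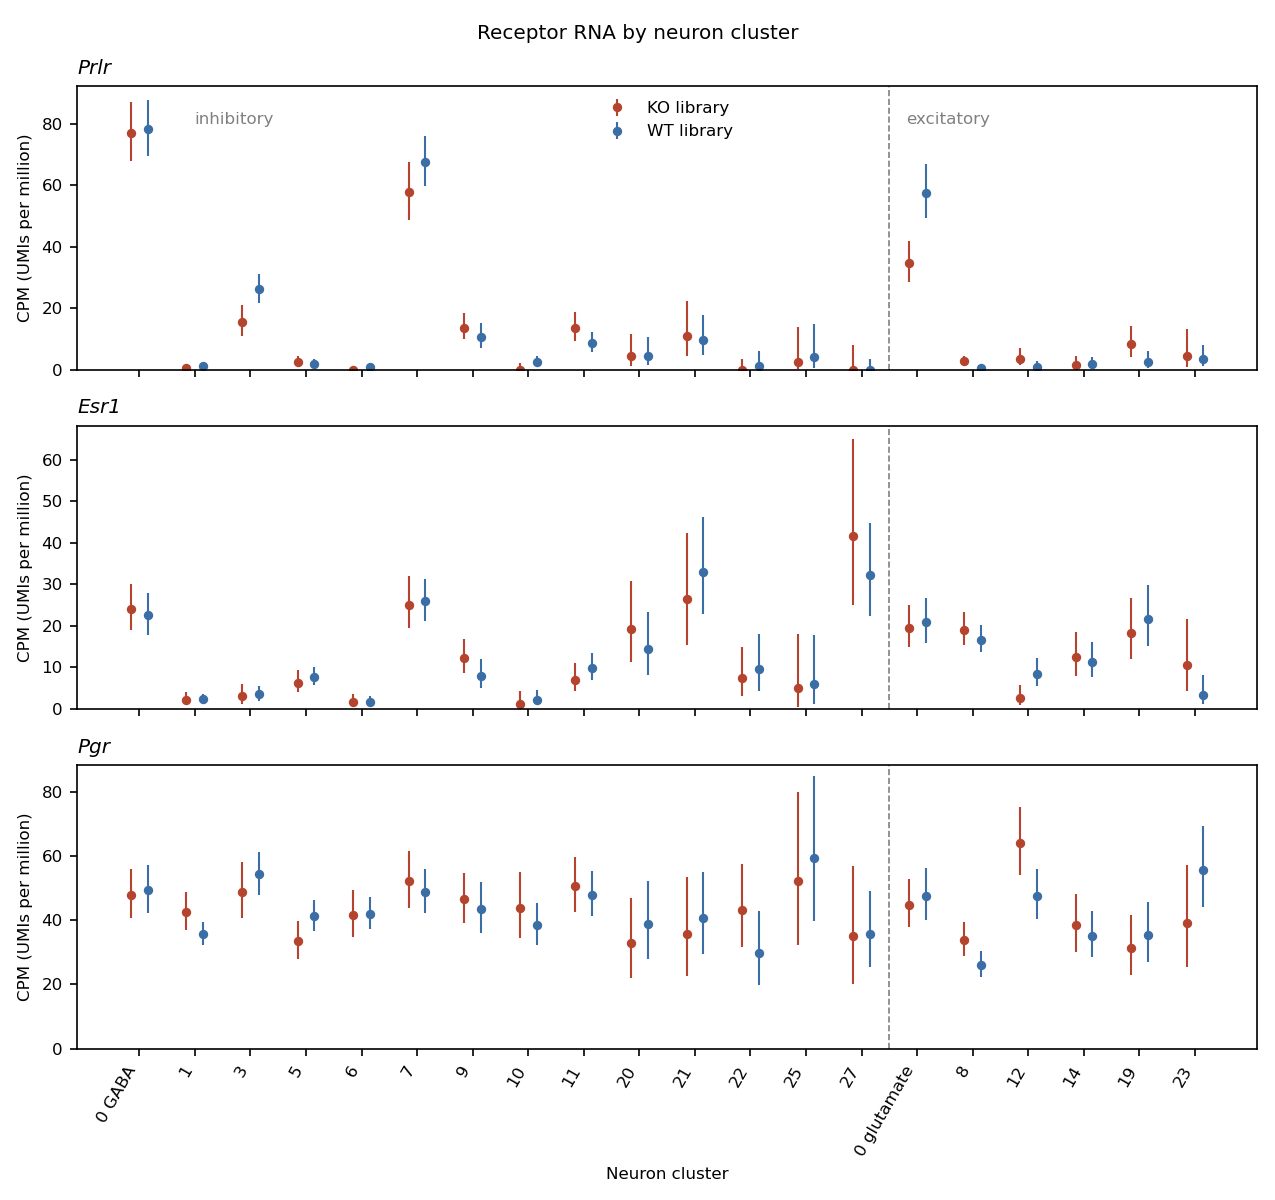
Prlr, Esr1 and Pgr in CPM (y axis) in neuron clusters (x axis), inhibitory left and excitatory right of the dashed line, with KO in red left of WT in blue. Bars are exact 95% Poisson intervals. Prlr peaks in cluster 0 and cluster 7, Esr1 in clusters 27 and 21, and Pgr stays between 26.2 and 64.0 CPM. Cluster 29, with 15 WT nuclei, is left out.

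Over all nuclei and in neurons the ratios of Prlr, Esr1 and Pgr lay within 0.5 of 0. As the log2 ratio of KO CPM over WT CPM, Prlr stood at -0.03 (-0.16 to 0.10) over all nuclei, 0.15 (-0.01 to 0.31) in inhibitory and -0.07 (-0.39 to 0.25) in excitatory neurons. The excitatory value rests on how cluster 0 is split: at a coarser clustering its nuclei joined an inhibitory cluster, and the ratio over the 39 KO and 19 WT UMIs then left was 1.41. A ratio past 0.5 in either direction, with at least 20 UMIs over both libraries, was reached by 1 of 5 receptors over all nuclei (Avpr1a), against 19.6% of all genes. It was reached by 1 of 5 in inhibitory neurons (Avpr1a), against 16.6%, and by 1 of the 4 with enough UMIs in excitatory neurons (Oxtr), against 17.9%. In microglia it was reached by Esr1, the 1 receptor with enough UMIs, at 1.17 (-0.44 to 3.20) from the 17 KO and 4 WT UMIs given above, against 38.9%. Each of these shares is a single receptor with few UMIs. Over all nuclei the 11 oligodendrocyte markers summed to 1556 CPM in KO and 902 CPM in WT and the 11 microglial markers to 209 CPM in KO and 102 CPM in WT. When each cluster was given 1 weight for both libraries, the ratio over all nuclei was -0.22 for Prlr and -0.061 for Esr1, and that of Prlr in inhibitory neurons turned to -0.15. The GABA nuclei of cluster 0 were 10.2% of the KO and 7.11% of the WT inhibitory neurons.

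Prlr was lower in the library labelled KO in the glutamate nuclei of cluster 0 and in cluster 3. The ratio was -0.73 (-1.09 to -0.37) in the glutamate nuclei, from 109 UMIs in 348 KO nuclei and 168 UMIs in 354 WT nuclei. It was -0.76 (-1.31 to -0.24) in cluster 3, from 40 UMIs in KO and 126 in WT, and thinning each nucleus to 1000 UMIs brought it to -0.39, short of 0.5. In each, Prlr was the 1 of 3 receptors with enough UMIs past 0.5, which 17.5% of all genes passed in the glutamate nuclei and 17.3% in cluster 3. Genes with a like number of UMIs had their 5th percentile at -0.47 in the glutamate nuclei and -0.59 in cluster 3, above the Prlr values. In the GABA nuclei of cluster 0 the ratio was -0.02 (-0.27 to 0.23) and in cluster 7 -0.23 (-0.52 to 0.07), and there 0 of 3 receptors passed 0.5, against 16.0% of all genes in the GABA nuclei and 17.3% in cluster 7. The difference between these ratios was not tested. The lower level in cluster 3 depends on how its cells are chosen: the gate on Foxp2 and Tshz1, of which 64.7% lay in cluster 3 and 11.2% in cluster 7, held 23.97 CPM in KO and 22.0 CPM in WT (0.12, -0.24 to 0.49), and 0 of 3 receptors passed 0.5 there, against 16.1% of all genes. Prlr was past 0.5 in the other direction in several groups with lower levels. In inhibitory cluster 11 the ratio was 0.65 (-0.08 to 1.39), from 36 UMIs in KO and 32 in WT, and Prlr was the 1 of 3 receptors past 0.5, against 16.8% of all genes. The gate on Drd1 and Ebf1 stood at 0.56 (-0.06 to 1.18), from 44 UMIs in KO and 49 in WT, as the 1 of 3 past 0.5, against 16.2%. The gates on Rspo2 and on Cyp19a1, each with 16 UMIs in KO and 12 in WT, stood at 0.75 (-0.42 to 1.97) and 0.66 (-0.51 to 1.88), as the 1 of 3 and the 1 of 2 past 0.5, against 18.9% and 34.6% of all genes. All 4 intervals include 0. Excitatory clusters with under 20 UMIs of Prlr went both ways. Cluster 8 had 13 in KO, 5 of them in 1 nucleus, and 3 in WT. Cluster 12 had 8 in KO and 3 in WT, and cluster 19 had 12 in KO and 4 in WT. Cluster 23 stood at 4.51 CPM in KO and 3.49 CPM in WT. Lower in KO were cluster 14, at 1.56 CPM in KO and 1.78 CPM in WT, and cluster 29, with 0 UMIs in KO and 1 in WT.

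The lower levels did not rest on 1 nucleus. Without the nucleus with most Prlr in each library, the glutamate nuclei of cluster 0 stood at 32.9 CPM in KO and 51.8 CPM in WT, and cluster 3 at 13.1 CPM in KO and 24.9 CPM in WT. Choosing nuclei with Slc17a6 and no Slc17a7 in every neuron cluster gave 38.7 CPM in KO and 59.0 CPM in WT, a ratio of -0.61 (-1.02 to -0.20). In the gate within the excitatory class it was -0.66 (-1.07 to -0.25), against 20.4% of all genes past 0.5. Of the nuclei of that gate, 92.6% were glutamate nuclei of cluster 0. Both choices held 82 Prlr UMIs in KO and 132 in WT, so neither is a check separate from those nuclei. Other genes also differed between the libraries in these nuclei and in cluster 3, in both directions. Pappa2, a protease that cleaves IGF-binding proteins, stood at 102 CPM in KO and 196 CPM in WT in the glutamate nuclei, and Foxp2 at 227 CPM in KO and 163 CPM in WT. In cluster 3, Baiap3 stood at 20.4 CPM in KO and 44.8 CPM in WT.

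Prlr was also read in the nuclei with and without a UMI of Pappa2 or Baiap3. Both genes themselves differed between the libraries and were chosen for that, so the split does not hold like nuclei in KO and WT. Glutamate nuclei with a Pappa2 UMI held Prlr at 45.9 CPM in KO and 86.6 CPM in WT (-0.92, -1.64 to -0.23), and those without it at 32.3 CPM in KO and 48.0 CPM in WT (-0.57, -1.01 to -0.15). Cluster 3 nuclei with a Baiap3 UMI held 49.6 CPM in KO and 45.1 CPM in WT (0.13, -0.87 to 1.06), and those without it 11.2 CPM in KO and 22.2 CPM in WT (-0.98, -1.67 to -0.34). The nuclei with Baiap3 were 9.98% of cluster 3 in KO and 17.6% in WT. The part of the makeup of these groups in the Prlr ratios was not tested.

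Esr1 lies on chromosome 10 (GRCm38, chr10:4611593-5005614, plus strand, 394.0 kb). RefSeq lists 2 starts, and the window at the more upstream one, shown as for Prlr, chr10:4611739-4612038, plus strand, holds 1 copy of the core site GGTCA, given in capitals.
Esr1 promoter: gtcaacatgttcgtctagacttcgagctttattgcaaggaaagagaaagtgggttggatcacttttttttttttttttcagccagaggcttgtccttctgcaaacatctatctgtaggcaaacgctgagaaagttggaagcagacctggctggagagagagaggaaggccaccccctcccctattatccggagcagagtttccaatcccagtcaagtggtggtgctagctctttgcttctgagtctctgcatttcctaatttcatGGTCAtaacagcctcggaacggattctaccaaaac
A core site alone stands in 40.5% of all windows, so this is a description of the sequence only.

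Esr1 was spread over more neuron types than Prlr. Among neuron clusters with at least 30 nuclei in each library it was highest in the cholinergic-marker cluster 27 in KO and in cluster 21 in WT. Cluster 27 stood at 41.6 CPM (25.04 to 64.9) from 37 KO nuclei and 32.2 CPM (22.4 to 44.8) from 92 WT nuclei. Cluster 21, led by Il1rapl2 and Egfr, stood at 26.4 CPM in KO and 33.0 CPM in WT. The Prlr-rich cluster 7 stood at 25.1 CPM (19.4 to 32.0) in KO and 25.9 CPM (21.2 to 31.3) in WT. These clusters cannot be ordered, since their intervals overlap in both libraries. The GABA nuclei of cluster 0 followed at 24.1 CPM in KO and 22.5 CPM in WT and its glutamate nuclei at 19.4 CPM in KO and 20.9 CPM in WT. Excitatory cluster 19, led by Spag16 and Npsr1, stood at 18.4 CPM in KO and 21.6 CPM in WT, and cluster 8, led by Pdzrn3 and Nwd2, at 19.0 CPM in KO and 16.6 CPM in WT. The striatal-marker clusters 1, 6 and 10 were lowest, between 1.19 and 2.25 CPM in KO and between 1.79 and 2.53 CPM in WT. Cluster 5, also led by the striatal markers Drd2 and Adora2a, stood higher, at 6.27 CPM in KO and 7.79 CPM in WT. The highest cluster stood 3.38 times above the median neuron cluster in KO and 3.41 times in WT.

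Clusters 0 and 7 held 33.1% of the Esr1 UMIs in KO and 33.9% in WT, against 69.7% of those of Prlr in KO and 70.8% in WT. The KO over WT ratio of Esr1 was 0.13 (-0.02 to 0.28) over all nuclei, 0.17 (-0.04 to 0.38) in inhibitory neurons and -0.01 (-0.26 to 0.25) in excitatory neurons. In the glutamate nuclei of cluster 0, where Prlr was lower, the Esr1 ratio was -0.10 (-0.64 to 0.43).

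Single groups went further in both directions, most of them on few UMIs. Esr1 passed 0.5 higher in KO in clusters 9 and 15, the microglia and the gates on Sst and Tac2, and lower in KO in clusters 12 and 29, the nuclei of cluster 0 with equal transmitter counts and the gate on Sim1. In cluster 9 it had 38 UMIs in KO and 22 in WT (12.3 CPM in KO and 7.97 CPM in WT), a ratio of 0.63 (-0.17 to 1.46). There Esr1 and Oxtr were the 2 of 4 receptors past 0.5, against 17.4% of all genes. In cluster 15 it had 60 UMIs in KO and 32 in WT, a ratio of 0.64 (-0.01 to 1.30), as the 1 of 3 receptors past 0.5, against 25.1%. In the Tac2 gate it had 29 UMIs in KO and 15 in WT, a ratio of 0.66 (-0.29 to 1.67), as the 1 of 3 past 0.5, against 22.0%. These 3 intervals include 0.

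In nuclei with Sst and no Lhx6, Esr1 stood at 12.1 CPM (9.65 to 15.01) in KO and 8.18 CPM (6.62 to 10.0) in WT. The ratio was 0.57 (0.12 to 1.01), and Esr1 was the 1 of 4 receptors past 0.5 there, against 16.2% of all genes. Thinning each nucleus to 1000 UMIs, a draw that keeps a small part of the molecules, turned the ratio to -0.46. Esr1 kept its sign there in 10 of the 11 alternatives. In excitatory cluster 12, led by Ccn2 and Trabd2b, it had 6 UMIs in KO and 26 in WT, a ratio of -1.67 (-3.24 to -0.36), against 23.2% of all genes. In nuclei of cluster 0 with equal transmitter counts it had 9 UMIs in KO and 30 in WT, a ratio of -1.50 (-2.76 to -0.39), against 23.8%. In nuclei with Sim1, a transcription factor of medial amygdala and hypothalamic neurons, it stood at 21.9 CPM in KO and 59.2 CPM in WT, a ratio of -1.43 (-2.27 to -0.62). Prlr was the other of the 2 of 3 receptors past 0.5 there, against 32.0% of all genes, with 11 UMIs in KO and 12 in WT, a ratio of -1.19 (-2.51 to 0.12). Of the WT Prlr UMIs 8 came from 1 nucleus, and without the top nucleus of each library the Prlr ratio was -0.49. For Esr1, 14 of the 31 WT UMIs came from 1 nucleus, and without those nuclei the levels were 17.7 CPM in KO and 33.6 CPM in WT. The Sim1 gate held 107 KO and 55 WT nuclei. Of these 162 nuclei, 88 lay in cluster 29, which held 76 KO and 15 WT nuclei. The gate thus did not hold like nuclei in KO and WT, and the part of this in the ratios was not tested.

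**Figure D3:**
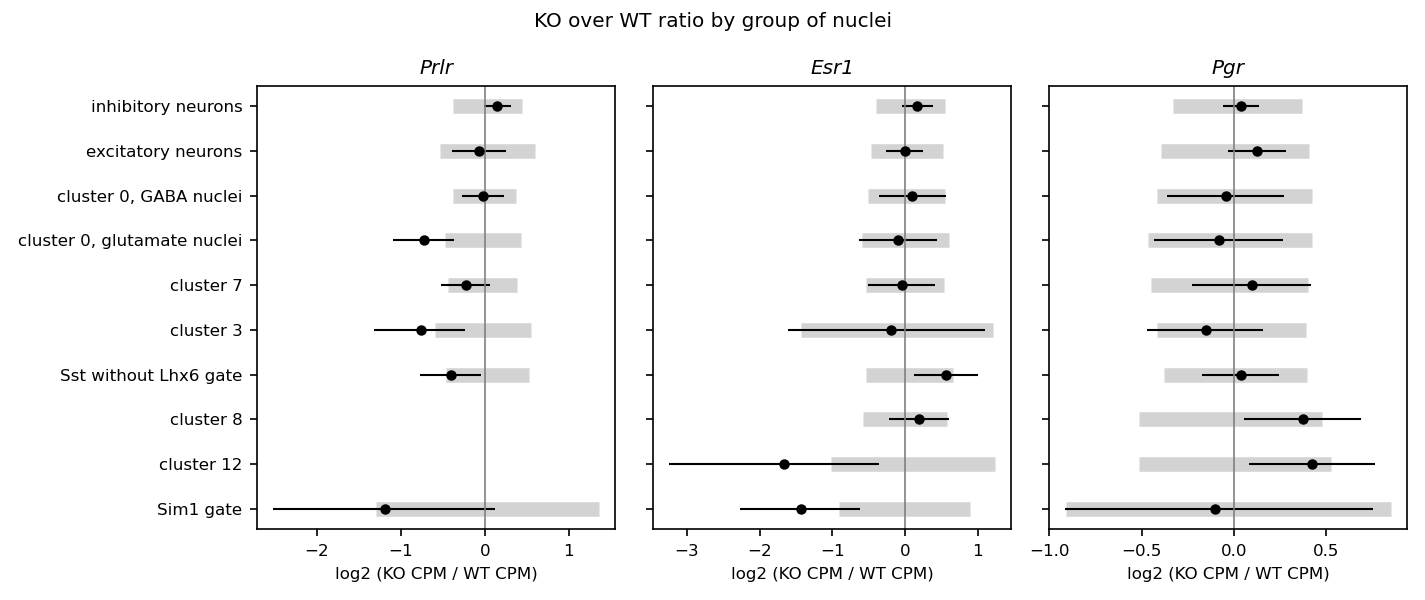
Log2 ratio of KO CPM over WT CPM (x axis) of Prlr, Esr1 and Pgr in 10 groups of nuclei (y axis). Points carry exact 95% intervals for counting error, and grey bars span the 5th to 95th percentile of genes with a like number of UMIs in the same group. A group with under 20 UMIs of the receptor has no point. Prlr in the glutamate nuclei of cluster 0 (-0.73) and in cluster 3 (-0.76) and Esr1 in cluster 12 (-1.67) and the Sim1 gate (-1.43) lie below their grey bars.

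Pgr lies on chromosome 9 (GRCm38, chr9:8899833-8968611, plus strand, 68.8 kb) and was the most even of the receptors over neurons. Its neuron clusters ran between 27.8 and 64.0 CPM in KO and between 26.2 and 59.3 CPM in WT, leaving out cluster 29 in WT with its 15 nuclei. The highest stood 1.502 times above the median cluster in KO and 1.42 times in WT. In KO the highest was excitatory cluster 12, at 64.0 CPM (54.0 to 75.3), with 47.7 CPM (40.3 to 56.0) in WT. In WT it was cluster 25, led by Npy, Nos1 and Sst, at 59.3 CPM (39.7 to 85.2), with 52.3 CPM (32.4 to 79.9) in KO. The striatal-marker clusters, nearly without Prlr, held as much Pgr as the rest: cluster 1 stood at 42.6 CPM in KO and 35.9 CPM in WT, and cluster 6 at 41.7 CPM in KO and 42.1 CPM in WT.

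The Pgr ratio was -0.00 (-0.08 to 0.08) over all nuclei, from 2202 UMIs in KO and 3083 in WT, 0.04 (-0.06 to 0.14) in inhibitory and 0.13 (-0.03 to 0.28) in excitatory neurons. These are the narrowest intervals of the 5 receptors, which cover counting error alone. In the GABA and glutamate nuclei of cluster 0 the ratios were -0.04 and -0.08. Cluster 12 stood at 0.43 (0.08 to 0.77) and cluster 8 at 0.37 (0.06 to 0.69), both under the fold of 0.5, with the 95th percentile of genes with like UMIs at 0.53 and 0.48. Pgr passed 0.5 in 3 smaller clusters. In inhibitory cluster 22, led by Ntn1 and Gpr149, it stood at 43.3 CPM in KO and 29.7 CPM in WT, a ratio of 0.54 (-0.17 to 1.28) from 46 UMIs in KO and 28 in WT, against 24.3% of all genes. In excitatory cluster 23, led by Nr4a2 and Ntng2, it stood at 39.1 CPM in KO and 55.8 CPM in WT, a ratio of -0.51 (-1.21 to 0.14) from 26 UMIs in KO and 80 in WT, against 28.4%. Pgr was the 1 receptor with enough UMIs in each of these clusters. In cluster 29 it had 20 UMIs in 76 KO nuclei and 2 UMIs in 15 WT nuclei, a ratio of 1.08 (-0.96 to 4.23), and Pgr and Esr1, both with enough UMIs there, passed 0.5, against 41.5% of all genes. All 3 intervals of Pgr include 0.

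Oxtr lies on chromosome 6 (GRCm38, chr6:112473683-112489943, minus strand, 16.3 kb). RefSeq lists 1 start, and its window, also shown for the tags at the 5′ end, chr6:112489776-112490075, minus strand and written along the gene, holds 2 copies of the core site GGTCA, given in capitals.
Oxtr promoter: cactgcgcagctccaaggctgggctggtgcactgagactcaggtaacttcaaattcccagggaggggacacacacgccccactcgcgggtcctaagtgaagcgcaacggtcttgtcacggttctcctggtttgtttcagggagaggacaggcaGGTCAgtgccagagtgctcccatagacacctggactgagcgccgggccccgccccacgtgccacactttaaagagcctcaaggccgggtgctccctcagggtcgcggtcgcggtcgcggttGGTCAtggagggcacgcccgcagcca
Oxtr was rare, with 79 UMIs in 75 KO nuclei and 134 UMIs in 124 WT nuclei, and never more than 3 in 1 nucleus. It stood at 1.47 CPM (1.08 to 1.96) in KO and 1.70 CPM (1.36 to 2.09) in WT inhibitory neurons, and at 1.12 CPM (0.655 to 1.80) in KO and 1.90 CPM (1.32 to 2.64) in WT excitatory neurons.

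Its UMIs were spread over many clusters, whose intervals mostly overlap. Cluster 9, led by Nxph1, Kcnmb2 and Sox6, held 11 UMIs in KO (3.56 CPM, 1.78 to 6.37) and 21 in WT (7.60 CPM, 4.71 to 11.6). Cluster 25, led by Npy, Nos1 and Sst, held 4 in KO (9.95 CPM, 2.71 to 25.5) and 3 in WT (6.13 CPM, 1.26 to 17.9). Excitatory cluster 19 held 7 in KO (4.76 CPM, 1.91 to 9.81) and 4 in WT (2.40 CPM, 0.653 to 6.13). Cluster 9 held 13.9% of the Oxtr UMIs in 4.31% of the KO nuclei and 15.7% in 3.19% of the WT nuclei. In the mural and endothelial-marker cluster 24, which was left unnamed, 3 UMIs in KO and 1 in WT are too few to read. The ratio was -0.28 (-0.70 to 0.13) over all nuclei and -0.76 (-1.68 to 0.12) in excitatory neurons. In the latter, thinning to 1000 UMIs turned it to 0.44, while 10 of the 11 alternatives kept its sign. In excitatory cluster 8 Oxtr had 4 UMIs in KO and 18 in WT, a ratio of -1.80 (-3.83 to -0.20), as the 1 of 3 receptors past 0.5, against 20% of all genes, and in cluster 9 the ratio was -1.09 (-2.29 to 0.02), where 17.4% of all genes passed 0.5.

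Avpr1a lies on chromosome 10 (GRCm38, chr10:122448499-122453452, plus strand, 5.0 kb) and was close to the limit of detection. It had 12 UMIs in KO and 11 in WT, each in a nucleus of its own. Cluster 11, led by Coro6, Lhx8 and Pappa, held 8 of the 12 in KO and 4 of the 11 in WT, in 2.72% of the KO nuclei and 3.08% of the WT nuclei. Inhibitory neurons held 12 in KO and 8 in WT, a ratio of 1.31 (-0.10 to 2.81), and over all nuclei the ratio was 0.61 (-0.70 to 1.93), or -0.18 after thinning to 1000 UMIs. Both intervals include 0, so a difference was not detectable at this depth.

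Receptors shared nuclei to a limited extent, and the shares depend on depth. In clusters 0 and 7, 18.1% of the 237 KO nuclei with a Prlr UMI also had an Esr1 UMI (13.5 to 23.6), against 9.85% of the 934 without (8.02 to 11.9). In WT it was 19.3% of 357 (15.4 to 23.8), against 8.65% of 1133 (7.08 to 10.4). A nucleus with more UMIs is more likely to show both, so nuclei were also thinned to 2000 UMIs, which left out 1348 KO and 780 WT nuclei that were shallower. Then the shares in KO were 3.85% with Prlr (1.06 to 9.56, 4 of 104) and 3.88% without (2.80 to 5.22), and in WT 10.6% with (6.27 to 16.4, 17 of 161) and 4.05% without (3.05 to 5.26). The thinned intervals overlap in KO and do not in WT, and whether the libraries differ in this was not tested. For scale, 0.606% of KO and 0.867% of WT oligodendrocytes had an Esr1 UMI, at median depths of 1858 UMIs in KO and 1974 UMIs in WT, against 8080 UMIs in KO and 7708 UMIs in WT inhibitory neurons.

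For Pgr the intervals with and without Prlr overlapped after thinning. It was found with Prlr in 39.7% and without it in 27.4% of KO nuclei in clusters 0 and 7, and in 29.1% with and 28.7% without in WT. Thinned, this became 13.5% with and 8.32% without in KO and 9.94% with and 8.32% without in WT. For scale, 1.30% of KO and 1.56% of WT oligodendrocytes had a Pgr UMI, at the depths given for Esr1.

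**Figure D4:**
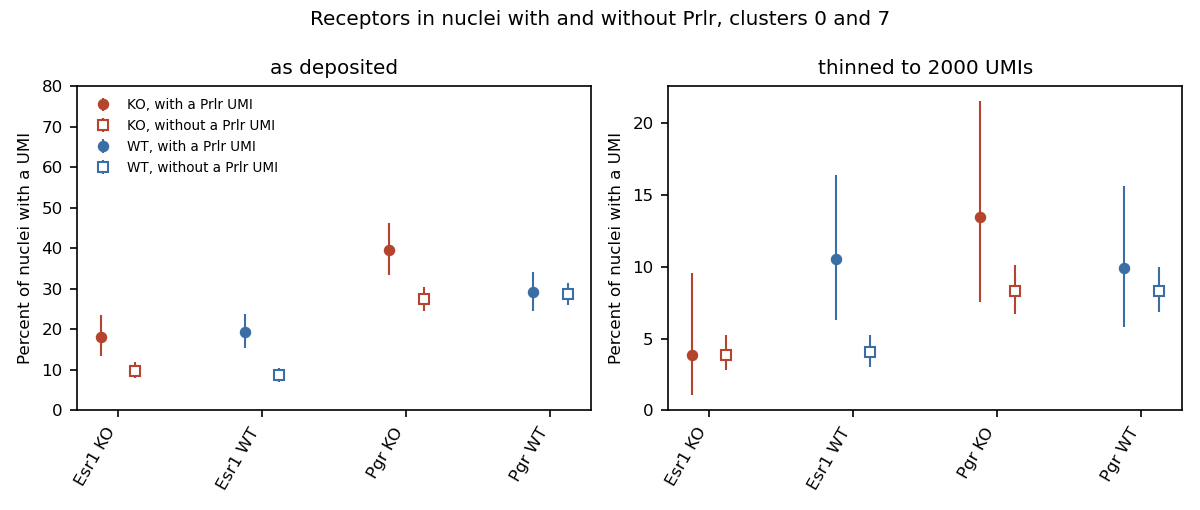
Percent of nuclei in clusters 0 and 7 with a UMI of Esr1 or Pgr (y axis), in nuclei with a Prlr UMI (filled circles) and without one (open squares), KO in red and WT in blue. Bars are exact 95% binomial intervals, for the counts as deposited (left) and after thinning to 2000 UMIs (right). As deposited, Esr1 is found more often with Prlr in both libraries. After thinning, the WT intervals stay apart (10.6% with, 4.05% without) and the KO intervals overlap (3.85% with, 3.88% without).

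Over the 33 clusters with at least 30 nuclei, the receptors had unlike patterns. The Pearson correlation of log2(CPM + 1) between any 2 of them lay between 0.00 and 0.37, a description of points that share libraries and depth. Among 12137 genes, those most like Prlr included Dlk1 (0.73), Baiap3 (0.72) and Glra3 (0.71). Esr1 was nearest to Kpna3 (0.82), Pkib (0.81), Kcnk9 (0.77) and Atp6v0b (0.76). Pgr was nearest to Nipsnap1 (0.91), Cep70 (0.88), Zfat (0.88) and Mir124a-1hg (0.88). For the rare Oxtr and Avpr1a the nearest genes reached 0.69 (Spock2) and 0.70 (Corin). By Spearman correlation, 3 of the 4 genes stayed nearest for Esr1, 2 for Pgr, Oxtr and Avpr1a, and 0 for Prlr.

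Other hormone receptors were measured as well. Esr2, estrogen receptor beta, had 128 UMIs in KO and 136 in WT (0.40, 0.04 to 0.75), with its highest pooled level of 17.5 CPM in the cholinergic-marker cluster 27, where Esr1 was also among the highest. Of 17 listed hormone receptors besides the 5, 14 had at least 20 UMIs, and 1 passed 0.5 in each direction. These were Lepr, the leptin receptor, at 292 UMIs in KO and 240 in WT (0.77), and Gper1, a membrane estrogen receptor, at 11 UMIs in KO and 26 in WT (-0.76, -1.92 to 0.31). Lepr was highest by far in the fibroblast cluster 28, at 385 CPM with both libraries pooled, and that cluster held 99 KO and 18 WT nuclei. The median ratio of the list was 0.03, against 0.08 over all genes, and 19.6% of all genes passed 0.5.

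Few signalling genes passed a ratio of 0.5 over all nuclei, which 19.6% of all genes did. Of 10 genes of prolactin receptor signalling, 3 were higher and 7 lower in KO, and only Socs1, a feedback inhibitor of Jak kinases, passed the fold, with 38 UMIs in KO and 94 in WT (-0.82, -1.41 to -0.27). Jak2 stood at 85.8 CPM in KO and 107 CPM in WT (-0.32), and Stat5b at 55.4 CPM in KO and 58.0 CPM in WT (-0.06). The list had a median of -0.11. Of 11 genes of oxytocin and vasopressin receptor signalling, 4 were higher and 7 lower, with a median of -0.07, and only Rgs2, which limits Gq signalling, passed the fold, at 5.15 CPM in KO and 9.15 CPM in WT (-0.83, -1.03 to -0.63). Of 13 partners of steroid receptors, Greb1, an estrogen-induced cofactor, had 85 UMIs in KO and 170 in WT (-0.52), and the median was 0.03. Fkbp5, a chaperone partner induced by glucocorticoids, stood just under the fold at 0.50, with 114 CPM in KO and 80.8 CPM in WT. Of 6 steroid-synthesis genes with enough UMIs none passed, and Cyp19a1 had 48 UMIs in KO and 61 in WT (0.14, -0.44 to 0.71), most often in cluster 22 at 13.5 CPM with both libraries pooled.

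The ligands were mostly absent or scarce. Prl, the pituitary hormone prolactin, had 0 UMIs in both libraries. Avp, the vasopressin precursor, had 299 UMIs in KO and 38 in WT (3.46, 2.97 to 3.99), and Oxt, the oxytocin precursor, 50 in KO and 6 in WT (3.54, 2.32 to 5.06). Gnrh1, the precursor of gonadotropin-releasing hormone, had 41 UMIs in KO and 85 in WT (-0.57, -1.14 to -0.01). Of 7 listed ligands, 3 had enough UMIs, and these 3 passed 0.5, against 19.6% of all genes. In KO, 96 of the Avp UMIs lay in the GABA nuclei of cluster 0, 89 of them in 3 nuclei and 76 in 1, and in WT all 10 there lay in 1 nucleus. The rest was thinly spread: 194 KO and 29 WT nuclei had at least 1 Avp UMI, among them 32 KO and 2 WT oligodendrocytes. Oxt was found in 40 KO and 5 WT nuclei, with 9 of the KO UMIs in 1 nucleus. The part of free RNA in the Avp and Oxt ratios was not tested.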

How the data were processed

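Single nuclei of the amygdala were sequenced with a droplet 5′ kit, per the labels' protocols. The deposited values are raw counts of UMIs per gene and nucleus; Cell Ranger 6.0.0 and the mm10 build are named in the submitters' processing notes. The treatment of intronic reads and the nucleus calling were not given in the sources used here. In KO, 8666 barcodes with 60402979 UMIs were deposited, and in WT 11060 barcodes with 85124128 UMIs. Of 32285 identifiers, 32158 matched a symbol in the reference tables.

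Nuclei with under 500 genes, over 5% mitochondrial UMIs or a Scrublet doublet call were left out: 143, 390 and 222 in KO, and 12, 257 and 422 in WT. Both libraries were clustered together without batch correction (scanpy 1.11.5, 2000 variable genes without the receptors, 30 components, 15 neighbours, Leiden resolution 1.0), which gave 32 clusters. Classes were named from marker lists. The scoring of classes and the 3-fold rule between transmitters were set after the clusters were seen. UMIs were summed per library and group and given per 1000000 UMIs (CPM). With 1 library per genotype no p-value was computed. Ratios carry exact conditional binomial intervals, levels exact Poisson intervals and shares of nuclei exact Clopper-Pearson intervals, all at 95% and for counting error only. Genes with like UMIs had a total within 1.5 times that of the receptor. TMM factors came from edgeR 4.0.16, used for scaling alone. The ratio script was tested on simulated data.

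The receptors and gene lists were chosen with earlier results of these data known. Besides the receptors, the text names for each the 4 genes with the highest correlation over clusters (at least 200 UMIs, and 10 CPM in the top cluster), and list genes past 0.5 with at least 20 UMIs or tied to a hormone of the receptors. A few genes that this rule names are not reported here. Other list genes (Jak2, Stat5b, Fkbp5) and genes named beside Prlr (Pappa2, Foxp2, Baiap3) were chosen after their values were seen. Alternatives changed the filters, doublets, scaling, cluster weights, depth, gates and resolution. For single clusters they changed only scaling, depth, the weight of nuclei and the top nucleus.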

Additional observations from a re-analysis of the deposited data

Results flagged for a closer look

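Esr1 in nuclei with Sst and no Lhx6 had a log2 ratio of 0.57 (0.12 to 1.01), from 83 UMIs in KO and 95 in WT, while Prlr in the same nuclei stood at -0.40 (-0.77 to -0.04). It drew attention because its interval lies on the other side of 0 from those of Esr1 in other groups, such as the Sim1 gate. The difference between groups was not tested.

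Esr1 in cluster 29, the excitatory cluster led by Sim1, had a log2 ratio of -2.77 (-4.17 to -1.43), from 9 UMIs in 76 KO nuclei and 13 UMIs in 15 WT nuclei. It drew attention because Esr1 went the opposite way in the Sst nuclei, and that difference was not tested either. Of all genes, 41.5% passed 0.5 in this cluster. It held 88 of the 162 nuclei of the Sim1 gate, so it is not separate from that gate. Without the nucleus of each library with most Esr1, the levels were 9.86 CPM in KO and 48.3 CPM in WT.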

How the results depend on the processing

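No paired analysis was possible because each genotype has 1 library, and for the same reason no replicate could be left out. Thinning each nucleus to 1000 UMIs, 1 random draw that keeps a small part of the molecules, moved the ratio over all nuclei to -0.31 for Prlr and -0.42 for Esr1 and reversed that of Avpr1a to -0.18. In inhibitory neurons it gave -0.017 for Prlr, -0.46 for Esr1 and 0.31 for Pgr, and in excitatory neurons -0.79 for Esr1, 0.37 for Pgr and, reversed, 0.44 for Oxtr. Equal cluster weights in both libraries gave -0.22 for Prlr and -0.061 for Esr1 over all nuclei and -0.15 for Prlr in inhibitory neurons. Weighting each nucleus alike, added after seeing the data, gave -0.29 for Prlr and -0.19 for Pgr over all nuclei and -0.056 for Prlr in inhibitory neurons. Prlr in excitatory neurons became 1.71 with a minimum of 200 genes and 1.41 at resolution 0.5, where cluster 0 nuclei fell to an inhibitory cluster. Single groups reversed as well: Esr1 in the Sst gate to -0.46 when thinned, and Prlr in the Sim1 gate, -1.19 as reported, to 0.88 with at least 2 UMIs per marker. With that stricter gate, Prlr in the Zfp804b and Baiap3 gate stood at 80.4 CPM in KO and 66.6 CPM in WT, and Oxtr in the Lhx6 and Nxph1 gate at 0 CPM in WT. Spearman correlation kept 0 of 4 nearest genes for Prlr and 2 of 4 for Oxtr, Avpr1a and Pgr. As deposited, 16.1% of KO inhibitory nuclei with Prlr had Esr1 and 5.11% of those without. In WT it was 14.3% with and 4.34% without. Thinned to 2000 UMIs, the shares were 3.19% with and 1.82% without in KO and 9.73% with and 1.51% without in WT.

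Prlr kept its negative sign in the glutamate nuclei of cluster 0 (-0.73 to -0.63 over 5 alternatives), in cluster 3 (-0.998 to -0.39 over 5, the last when thinned and short of 0.5) and in the Slc17a6 gate (-0.79 to -0.53 over 9). The 5 for the clusters changed depth, the weight of nuclei, scaling or the top nucleus, but not the filters, doublet calls or clustering. They do not show whether the sign holds when nuclei are clustered anew. An alternative that left a library without a Prlr UMI gave no ratio. Prlr thus had 9 in the Slc17a6 gate, where Esr1 had 11. Esr1 in the Sim1 gate kept its negative sign too (-2.27 to -0.93 over 11). The causes of the other moves were not tested. Oxtr and Avpr1a rest on few UMIs.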

Other observations

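Prlr in nuclei with Nr4a2 and Ntng2, markers of claustral and endopiriform neurons, came to 3 UMIs in 123 KO nuclei and 23 UMIs in 202 WT nuclei. A single WT nucleus held 18 of the 23, and without the top nucleus of each library the levels were 0.628 CPM in KO and 2.07 CPM in WT.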
